A study of Mus musculus with 4 samples.

Results

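The Tbx2-Tbx4 and Tbx3-Tbx5 loci are paired T-box gene loci whose H3K27me3 peaks were described in blood progenitors of adult bone marrow and of fetal liver. H3K27me3, trimethylation of lysine 27 of histone H3, is laid down by Polycomb repressive complex 2. The members were every peak overlapping a window on chromosome 11 from 85.60 to 85.78 Mb (Tbx2-Tbx4) or on chromosome 5 from 120.05 to 120.40 Mb (Tbx3-Tbx5), on the mouse build mm9. They numbered 26 of the 20024 peaks deposited for bone marrow, and 40 of the 31847 peaks deposited for fetal liver. The bone marrow cells were lineage-negative (lin-) cells of C57BL/6 mice aged 8 weeks, and the fetal liver cells were lin- cells of embryonic day 14.5. Lin- cells are those that a panel of antibodies to mature blood cell markers left unstained. Both groups were transduced with a lentivirus carrying NOTCH1ΔE (N1dE), a form of NOTCH1 that drives T-cell leukaemia, were cultured for 3 days and were sorted for GFP. Cells without N1dE are not analysed here, so every value describes progenitors that carry it. Chromatin was cut with micrococcal nuclease and immunoprecipitated without crosslinking. Each group had 1 peak list, called against input on libraries that the peak names describe as merged. There is thus no spread between replicates, no test between the groups was made, and the values describe these 2 lists. A list of peaks holds no marker levels, so the labelled cell types could not be checked here.

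T-box genes encode transcription factors that bind DNA through a conserved domain, the T-box. Tbx2 and Tbx3 encode closely related repressors that act in the limb, the heart and other organs. Tbx4 acts in the hindlimb and the lung, and Tbx5 in the forelimb and the heart. A tandem pair was duplicated in vertebrate ancestors, so Tbx2 lies beside Tbx4 and Tbx3 beside Tbx5. Polycomb complexes keep many such developmental genes silent in lineages that do not use them, and they often cover the whole locus with a broad H3K27me3 domain.

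The RefSeq gene table at hand is on GRCm38.p6, another build than the peaks, and was used for gene order only. It lists no gene between Tbx2 and Tbx4, with Bcas3 as the closest protein-coding gene before the pair and Brip1 after it. Between Tbx3 and Tbx5 it lists 2 long noncoding RNAs, Tbx3os2 and Gm42017, and no protein-coding gene. Because genes were not placed on mm9, domains are given by position and not assigned to one gene of a pair. Of the 4 members, 1 matched the RefSeq promoter table. The 250 bases before this annotated start of Tbx4 (GRCm38.p6, chr11:85896515-85896764, plus strand) are shown so that the start can be found on any build. CG dinucleotides are in capitals.
Tbx4: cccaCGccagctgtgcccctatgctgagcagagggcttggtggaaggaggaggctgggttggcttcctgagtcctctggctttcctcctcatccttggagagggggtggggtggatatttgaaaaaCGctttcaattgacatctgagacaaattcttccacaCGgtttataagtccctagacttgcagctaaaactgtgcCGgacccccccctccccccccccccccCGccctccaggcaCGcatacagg
It holds 6 CG dinucleotides, the short palindrome that is dense in many promoters bound by Polycomb. Of the 32851 promoters in the table, 50.4% hold at least as many in the same length, and the median is 6.

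Across the Tbx2-Tbx4 window, H3K27me3 was called over 53.7 kb in bone marrow, against 79.5 kb in fetal liver. This was 29.8% of the 180 kb window in bone marrow, against 44.2% in fetal liver. The ratio of covered length, bone marrow over fetal liver, was 0.675, and over the whole genome it was 0.664. Bone marrow had 13 peaks and fetal liver 15. Of these, 3 in bone marrow and 4 in fetal liver were at least 5 kb wide, where 9.54% of the whole bone marrow list and 8.02% of the whole fetal liver list were that wide. They held 76.3% of the covered length of the window in bone marrow, against 76.6% in fetal liver. Of the bone marrow coverage 92.9% was also covered in fetal liver, against 74.1% over the genome. Of the fetal liver coverage 62.7% was also covered in bone marrow, against 49.2% over the genome. The lower share for fetal liver is thus no trait of this locus. A mark in fewer cells and less mark per cell cannot be told apart here. A deeper library also gives more and wider peaks, and the depth of either list is unknown. The bases in both lists came to 49.9 kb, those in the bone marrow list alone to 3.79 kb and those in the fetal liver list alone to 29.6 kb. The authors' caller also gave each peak a −log10 q-value, which is low for a weak call. Its median here was 1.06 in bone marrow (range 0.713 to 1.47) and 1.39 in fetal liver (0.459 to 2.23). Over the whole lists the medians were 1.38 in bone marrow and 1.09 in fetal liver. Most bone marrow calls of this window were thus weak beside their whole list. Their edges may be uncertain, which was not measured.

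**Figure D1:**
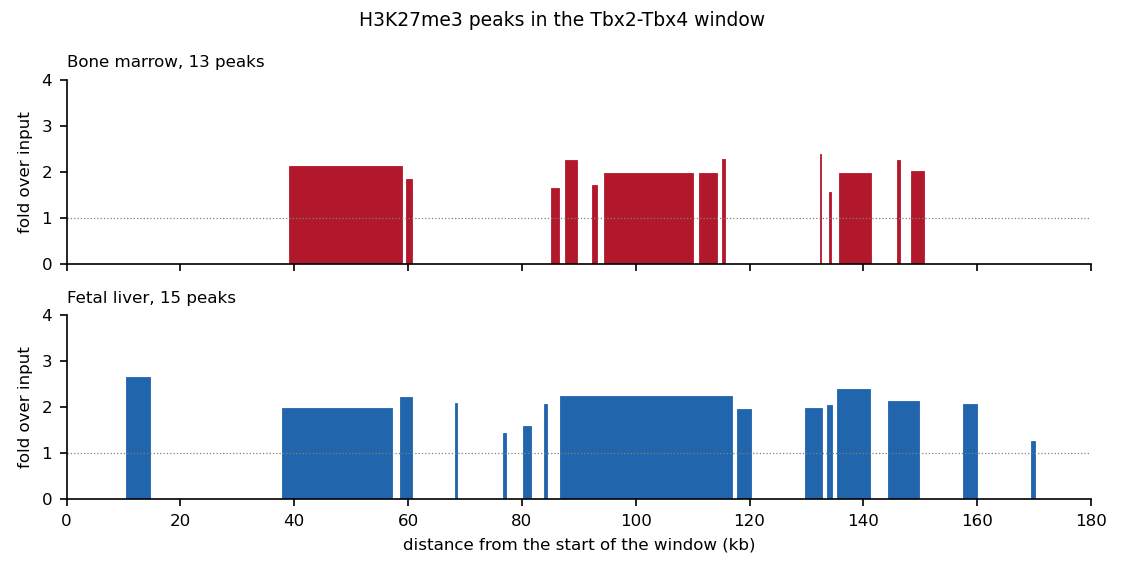
Peaks of the Tbx2-Tbx4 window in bone marrow (top, 13 peaks) and fetal liver (bottom, 15 peaks), by distance from the window start in kb; bar width is the peak width and bar height the authors' fold enrichment over input, with a dotted line at a fold of 1. A first block (21.6 kb in bone marrow, 22.9 kb in fetal liver) had nearly the same edges, and a second block (30.6 kb in bone marrow, 40.0 kb in fetal liver) reached further on both sides in fetal liver.

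Peaks of a list lying at most 3 kb apart were joined into domains, which gave 4 domains in bone marrow, against 9 in fetal liver. This order rests on the joining distance, since joining within 10 kb gave 3 in bone marrow, against 2 in fetal liver. The first wide domain of the window ran from 85639076 to 85660692 in bone marrow and from 85637833 to 85660761 in fetal liver. Its left edges lay 1.24 kb apart and its right edges 0.069 kb apart. It was nearly full in both lists, since peaks filled 96.2% of it in bone marrow, against 94.4% in fetal liver. Its main peak spanned 19.8 kb in bone marrow, the widest there, with a fold enrichment of 2.14, and 19.4 kb in fetal liver, with a fold enrichment of 1.97. By width these peaks ranked 100 of 20024 in bone marrow and 166 of 31847 in fetal liver. Their fold enrichments, the authors' ratio of immunoprecipitation to input averaged over a peak, stood near the middle of each list. In bone marrow 51.3% of peaks had that fold or less, and in fetal liver 54.6%.

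The second wide domain accounted for the largest difference of the window. It ran from 85685124 to 85715712 in bone marrow and from 85680256 to 85720274 in fetal liver, so that fetal liver reached 4.87 kb further on the left and 4.56 kb further on the right. Bone marrow marked it with 6 peaks over 23.9 kb, and fetal liver with 4 peaks over 34.5 kb. The widest fetal liver peak of the window lay here, 30.2 kb wide at a fold of 2.24, and ranked 41 of 31847 by width. The widest bone marrow peak of this domain was 15.6 kb wide at a fold of 1.98, and ranked 175 of 20024. All but 1 of the bone marrow peaks of this domain lay wholly inside the 30.2 kb fetal liver peak. The exception, of 1488 bp, ended 152 bp before that peak began.

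Between the first and the second wide domain few peaks or none were called. In bone marrow no peak was called over 24.4 kb, from 85660693 to 85685123, which was the widest gap between bone marrow domains of this window. Fetal liver peaks covered 2.68 kb of this gap. In fetal liver the distance was 19.5 kb and held 2 peaks, of 310 and 529 bp, which covered 4.30% of it. In fetal liver these short peaks left gaps of 7.57, 8.04 and 3.05 kb, each shorter than the 9.54 kb gap to the right of the second wide domain. The separation of the 2 wide domains in fetal liver thus rests on joining at 3 kb, and joining within 10 kb removed it. In bone marrow the 2 wide domains stayed apart at either distance. The widest gap in fetal liver, 23.2 kb, lay further left, between a peak from 85610351 to 85614666 and the first wide domain.

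Beyond the second domain, smaller domains followed in both lists. One ran from 85732359 to 85741296 in bone marrow, with 6.03 kb in peaks, and from 85729815 to 85741249 in fetal liver, with 9.70 kb in peaks. Their right ends lay 0.047 kb apart. The next ran from 85745925 to 85750700 in bone marrow, with 2.98 kb in peaks, and from 85744330 to 85749727 in fetal liver, with 5.40 kb. Fetal liver alone had a peak from 85757542 to 85759998 and one from 85769468 to 85770177. The latter was a weak call, with a fold of 1.26 and a −log10 q of 0.459. Only 2.48% of fetal liver peaks had that fold or less, and 1.23% that −log10 q or less. Fetal liver also had the peak nearest to the window start, of 4.32 kb and 24.4 kb from the closest bone marrow peak. With a fold enrichment of 2.65 this was the highest fold of the window in either list, at or above that of 90.5% of fetal liver peaks.

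In 10 kb bins, the Tbx2-Tbx4 window had no bin covered in bone marrow alone. Bone marrow peaks touched 11 of 18 bins and fetal liver peaks 16 of 18, against 6.43% and 9.39% of all mm9 bins in the same lists. Of the 16 bins with a peak in either list, 11 were covered in both (68.8%, 95% Wilson interval 44.4 to 85.8%), against 50.1% of such bins over the genome. None was covered in bone marrow alone, which allows a share of up to 18.8% with 3 bins taken as the bound of a count of 0, against 10.9% over the genome. Fetal liver alone covered 5 (31.3%, 14.2 to 55.6%), against 39.0% over the genome. These intervals cover counting error only, and neighbouring bins are not independent. The shares of bins in 1 list alone were close to or below the background and are no result about this locus. In 4 of the 5 bins covered in fetal liver alone, the peaks came to 533 bp or less. The fifth, the second bin of the window, held the 4316 bp peak. The bins with 533 and 177 bp held parts of a single weak peak, from 85769468 to 85770177. The largest difference was in the bin starting 110 kb into the window, at the right end of the second wide domain, with 3.83 kb in bone marrow, against 9.20 kb in fetal liver. It was the 1 bin where fetal liver covered at least 5 kb more than bone marrow, and no bin had the opposite difference. Of the bins with a peak in either list over the genome, 1.25% had the first difference and 0.0971% the opposite one.

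Across the Tbx3-Tbx5 window, H3K27me3 was called over 93.7 kb in bone marrow, against 116.9 kb in fetal liver. This was 26.8% of the 350 kb window in bone marrow, against 33.4% in fetal liver. The ratio of covered length, bone marrow over fetal liver, was 0.802. The number of peaks differed more, with 13 in bone marrow, against 25 in fetal liver. Over the genome the ratio of peak numbers, bone marrow over fetal liver, was 0.629. Peaks of under 1 kb numbered 5 in bone marrow, against 10 in fetal liver, and peaks of at least 5 kb numbered 4 in each list. The median width was 957 bp in the whole bone marrow list and 945 bp in the whole fetal liver list. Most peaks of either list were thus under 1 kb, and the short peaks are no trait of this locus. Of the bone marrow coverage 94.1% was also covered in fetal liver, and of the fetal liver coverage 75.4% was also covered in bone marrow. Over the genome these shares were 74.1% for bone marrow and 49.2% for fetal liver. The bases in both lists came to 88.2 kb, those in bone marrow alone to 5.56 kb and those in fetal liver alone to 28.7 kb.

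**Figure D2:**
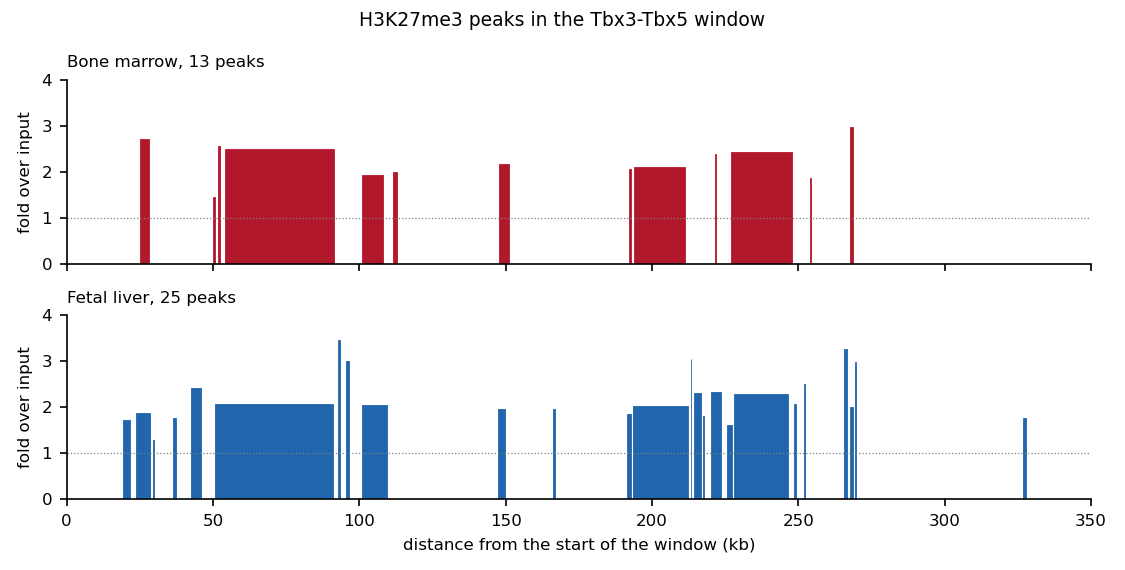
Peaks of the Tbx3-Tbx5 window in bone marrow (top, 13 peaks) and fetal liver (bottom, 25 peaks), drawn as for the other locus, with distance from the window start in kb and the authors' fold enrichment over input. The widest peak, of 37.1 kb in bone marrow, against 40.3 kb in fetal liver, lies at the same place, and the tallest bars are short fetal liver peaks that bone marrow lacks.

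The widest peak of both loci lay in the left part of the Tbx3-Tbx5 window. It ran from 120104159 to 120141259 in bone marrow, 37.1 kb, and from 120100691 to 120140989 in fetal liver, 40.3 kb. By width it ranked 11 of 20024 in bone marrow and 16 of 31847 in fetal liver. The fold enrichment was 2.50 in bone marrow, against 2.07 in fetal liver, at or above that of 76.7% of bone marrow, against 64.0% of fetal liver peaks. After joining, the domain ran from 120100099 to 120141259 in bone marrow and from 120100691 to 120146601 in fetal liver. The left edges lay 0.592 kb apart, and fetal liver reached 5.34 kb further on the right. That extension consisted of 2 short peaks with high fold, of 673 bp at 3.46 and of 1096 bp at 3.00.

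A smaller domain followed, from 120150865 to 120158021 in bone marrow and from 120150775 to 120159484 in fetal liver. Each population marked it with 1 peak, of 7.16 kb and a fold of 1.94 in bone marrow, against 8.71 kb and a fold of 2.06 in fetal liver. A peak of 3.43 kb in bone marrow, against 2.37 kb in fetal liver, starting at 120197593 in bone marrow and at 120197377 in fetal liver, was the only mark near the middle of the window that both lists shared. Around it lay the widest gaps between the left and the right part of the locus. In bone marrow they were 34.9 kb before this peak and 41.2 kb after it, and in fetal liver 37.9 kb before it and 16.4 kb after it. The shorter fetal liver gap ended at a peak of 807 bp, which was followed by another 24.4 kb without a peak.

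The right part held both of the other wide peaks. The first ran from 120243839 to 120261120 in bone marrow, 17.3 kb, and from 120243636 to 120262302 in fetal liver, 18.7 kb, and ranked 142 of 20024 by width in bone marrow, against 186 of 31847 in fetal liver. The other ran from 120276921 to 120297723 in bone marrow, 20.8 kb at a fold of 2.43, and from 120278174 to 120296614 in fetal liver, 18.4 kb at a fold of 2.30. This last peak was wider in bone marrow, and the whole fetal liver peak lay inside it. A further fetal liver peak of 1652 bp, from 120275678 to 120277329, overlapped the left end of this bone marrow peak by 409 bp. The difference in width thus depends on how the caller split the fetal liver peaks. What lay between the wide peaks of each list differed. In bone marrow the stretch held a single peak of 423 bp, so the wide peaks stayed in separate domains of 18.9 and 20.8 kb. In fetal liver 5 peaks of 229 to 3311 bp lay between the wide fetal liver peaks, among them the peak of 1652 bp. Joining gave 1 domain of 61.1 kb, from 120241334 to 120302388, with 10 peaks over 47.5 kb. Bone marrow peaks covered 39.1 kb of the same stretch.

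The distance between the left and the right part was similar in both populations. Taking the first and second joined domains of at least 15 kb, a limit chosen after the values were seen, it was 100.9 kb in bone marrow, against 94.7 kb in fetal liver. Peaks covered 11.6% of it in bone marrow, against 12.5% in fetal liver, with 3 peaks in each list. The same measure at the Tbx2-Tbx4 locus was the 24.4 kb in bone marrow, against 19.5 kb in fetal liver given above. With peaks joined within 3 kb, both loci thus had a left and a right marked part in each list. The stretch between these parts was mostly or wholly free of peaks, and it was wider at Tbx3-Tbx5. To the right of 120319836 no peak lay within the window in bone marrow. Fetal liver had 1 peak there, of 999 bp, after its widest gap of 57.0 kb.

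In 10 kb bins, bone marrow peaks touched 18 of 35 bins of the Tbx3-Tbx5 window and fetal liver peaks 21. Of the 23 bins with a peak in either list, 16 were covered in both (69.6%, 95% Wilson interval 49.1 to 84.4%). Bone marrow alone covered 2 (8.70%, 2.42 to 26.8%) and fetal liver alone 5 (21.7%, 9.66 to 41.9%), set against the same genome shares as above of 10.9% and 39.0%. The 2 bins of bone marrow alone held 1107 and 1025 bp. The second of these held the right end of the shared 3.43 kb peak, which ended at 120201025 in bone marrow, against 120199742 in fetal liver. The first held a separate peak from 120161625 to 120162731, which lay 2.14 kb from the closest fetal liver peak. The 5 bins of fetal liver alone held between 593 and 3258 bp. When only such bins with at least 1 kb in peaks were counted, bone marrow alone had 2 of 23 (8.70%, 2.42 to 26.8%). Fetal liver alone then had 1 of 23 (4.35%, 0.772 to 21.0%). The order turned, but these counts are too small to rank the lists, and no genome share was computed at this limit. No bin differed by 5 kb or more in either direction, and the 12 remaining bins held no peak of either list. Bins with at least 9 kb in peaks, which were 0.178% of all bins in bone marrow and 0.289% of all in fetal liver, numbered 5 of 35 in bone marrow and 6 of 35 in fetal liver. At Tbx2-Tbx4 they numbered 3 of 18 in bone marrow and 4 of 18 in fetal liver.

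**Figure D3:**
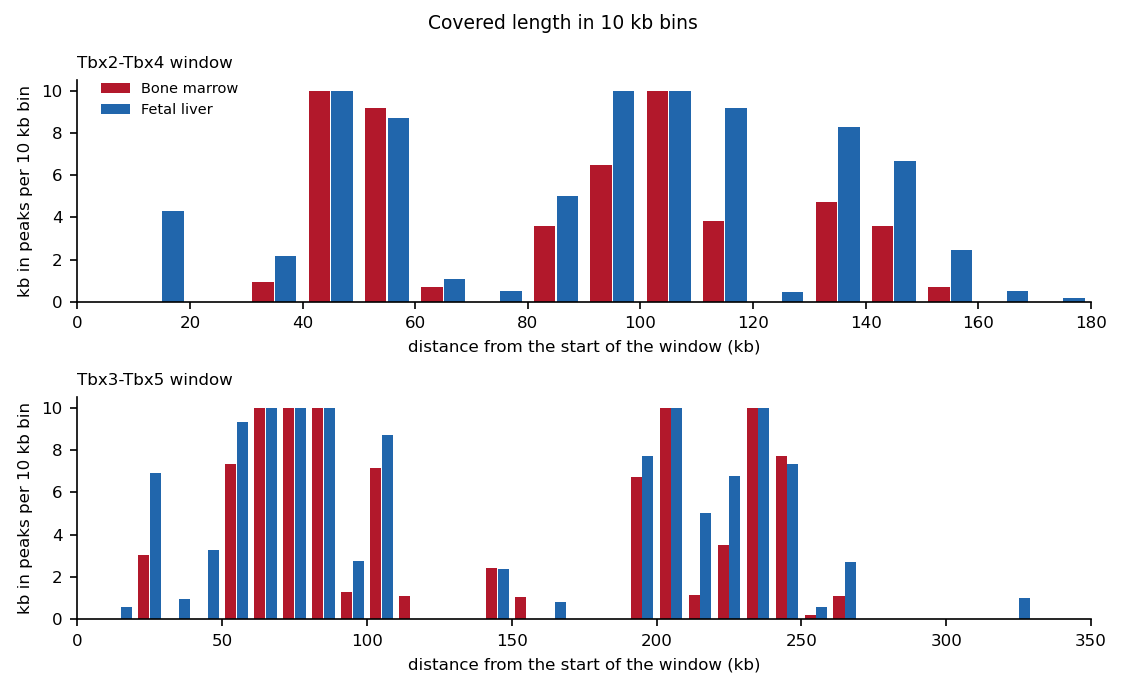
Length in peaks (kb) in each 10 kb bin of the Tbx2-Tbx4 window (top) and the Tbx3-Tbx5 window (bottom), for bone marrow (left bar of a pair) and fetal liver (right bar), by distance from the window start. Each bin with 10 kb in bone marrow peaks also has 10 kb in fetal liver peaks, and fetal liver covers more in 13 of 16 marked bins of Tbx2-Tbx4 and 14 of 23 of Tbx3-Tbx5.

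Most of the bases marked in fetal liver alone adjoined domains that bone marrow carried too. When peaks of either list were joined within 3 kb, the Tbx2-Tbx4 window held 4 regions marked in both and 5 in fetal liver alone, and the Tbx3-Tbx5 window 6 and 4. Neither window held a region marked in bone marrow alone. Such regions were not counted over the genome, so these numbers describe the windows and show nothing particular to them. Of the 29.6 kb of fetal liver alone at Tbx2-Tbx4, 21.3 kb lay inside shared regions and 8.32 kb in regions of fetal liver alone. Of the 28.7 kb at Tbx3-Tbx5, 22.7 kb lay inside shared regions and 6.03 kb outside them. The shared regions were filled unequally. The left wide region of Tbx2-Tbx4 was filled for 90.7% by bone marrow and 94.4% by fetal liver peaks, and its right wide region for 59.7% by bone marrow and 86.2% by fetal liver peaks. At Tbx3-Tbx5 the left wide region was filled for 83.0% by bone marrow and 90.5% by fetal liver peaks, and the right one, of 62.9 kb, for 62.4% by bone marrow and 75.4% by fetal liver peaks. At both loci the left region was thus filled more evenly by the lists than the right one.

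Most bone marrow peaks at these loci met a fetal liver peak, and fetal liver peaks met a bone marrow peak less regularly. At Tbx2-Tbx4 12 of 13 bone marrow peaks shared at least 1 bp with a fetal liver peak, and at Tbx3-Tbx5 11 of 13, against 68.0% of all bone marrow peaks. Of the fetal liver peaks 7 of 15 at Tbx2-Tbx4 and 10 of 25 at Tbx3-Tbx5 overlapped a bone marrow peak, against 39.8% of all fetal liver peaks. The fetal liver shares are near the background and say nothing particular of these loci. The bone marrow shares rest on 13 peaks per window, and whether they differ from 68.0% was not tested. The 3 bone marrow peaks without an overlap, of 200 to 1488 bp, all lay within 2.14 kb of a fetal liver peak. The fetal liver peaks without an overlap had a median width of 1015 bp at Tbx2-Tbx4 and 807 bp at Tbx3-Tbx5. They lay up to 24.4 kb from the closest bone marrow peak at Tbx2-Tbx4 and up to 29.1 kb at Tbx3-Tbx5.

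**Figure D4:**
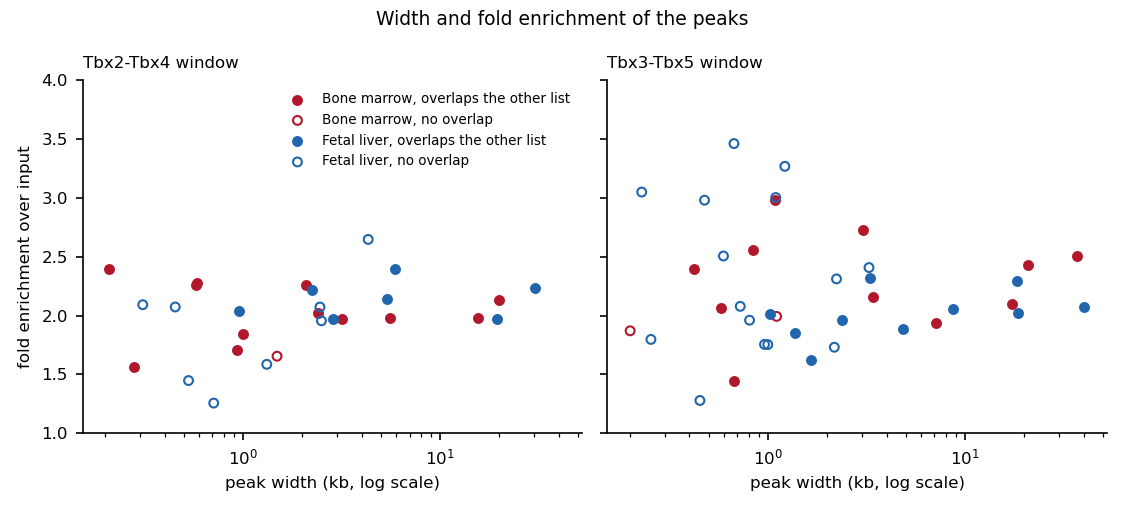
Fold enrichment over input (authors' values, linear axis) against peak width (kb, log axis) for each peak of the Tbx2-Tbx4 window (left) and the Tbx3-Tbx5 window (right); filled points overlap a peak of the other list, open points do not. Peaks of at least 5 kb lie between a fold of 1.94 and 2.50, and the 4 peaks at a fold of at least 3 are open fetal liver points of the Tbx3-Tbx5 window.

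The fold enrichment of the peaks differed between the loci more in bone marrow than in fetal liver. At Tbx2-Tbx4 the bone marrow peaks had a median fold of 1.98 (range 1.56 to 2.39) and the fetal liver peaks of 2.07 (1.26 to 2.65). At Tbx3-Tbx5 the medians were 2.16 (1.45 to 2.98) in bone marrow and 2.06 (1.28 to 3.46) in fetal liver. Over the whole lists they were 2.12 in bone marrow, against 1.93 in fetal liver. At Tbx2-Tbx4, 5 of 13 peaks in bone marrow had at least the median fold of their own list, against 12 of 15 in fetal liver. At Tbx3-Tbx5 this held for 7 of 13 in bone marrow, against 17 of 25 in fetal liver. The background of this count is 50.0% in each list by construction. A mean over a wide peak can be modest where a short peak keeps its local height, which was not tested here. Whether a given fold means the same in both lists was not tested.

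Peaks with a high score were found almost wholly at Tbx3-Tbx5. A −log10 q of at least 2, reached by 26.5% of peaks in the whole bone marrow list and 15.2% in the whole fetal liver list, was reached at Tbx3-Tbx5 by 6 of 13 peaks in bone marrow, against 6 of 25 in fetal liver. At Tbx2-Tbx4 it was reached by 0 of 13 bone marrow peaks, whose highest value was 1.47, and by 1 of 15 fetal liver peaks, at 2.23. The passing bone marrow peaks of Tbx3-Tbx5 included the 37.1 kb and the 20.8 kb peak, with 2.13 and 2.01. The fetal liver peaks at the same places, with 1.41 and 1.85, did not pass. Over peaks past this limit alone, the ratio of covered length at Tbx3-Tbx5, bone marrow over fetal liver, was 14.8, the opposite direction to the 0.802 over all peaks. A fold of at least 3, reached by 8.82% of peaks in the whole bone marrow list and 4.54% in the whole fetal liver list, was reached by no bone marrow peak of either locus and by 4 of 25 fetal liver peaks at Tbx3-Tbx5. None of these 4, of 229 to 1219 bp, overlapped a bone marrow peak. Among all fetal liver peaks at that fold, 79.0% overlapped none. They lay 0.857 to 4.25 kb from the closest bone marrow peak, at the margins of the wide domains or beside the short peak that starts at 120317535 in bone marrow, against 120317516 in fetal liver.

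**Figure D5:**
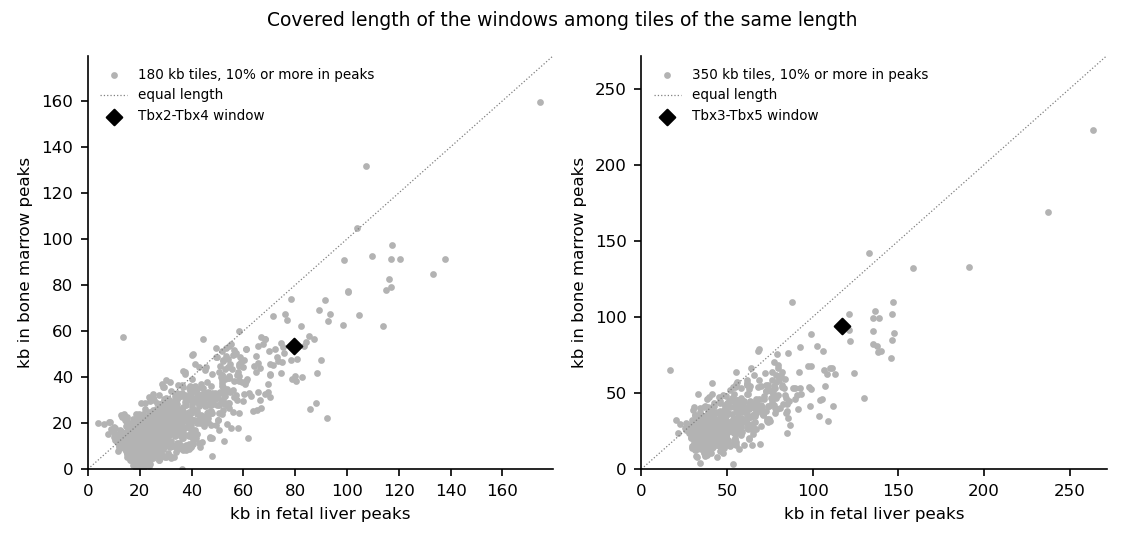
Length in bone marrow peaks (vertical axis, kb) against length in fetal liver peaks (horizontal axis, kb) for genome tiles of 180 kb (left) and 350 kb (right) with at least 10% of their length in peaks of either list; diamonds mark the Tbx2-Tbx4 window (53.7 kb in bone marrow, 79.5 kb in fetal liver) and the Tbx3-Tbx5 window (93.7 and 116.9 kb), and dotted lines mark equal length. Both windows lie high among the tiles and below the line, where most tiles lie.

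Among genome tiles of the same length, both loci were among the most heavily marked in both populations. Of the 14650 tiles of 180 kb, 39 held at least as much bone marrow coverage as the Tbx2-Tbx4 window (0.266%) and 36 at least as much fetal liver coverage (0.246%). Of the 7530 tiles of 350 kb, 13 reached the bone marrow coverage of the Tbx3-Tbx5 window (0.173%) and 25 its fetal liver coverage (0.332%). The windows were drawn around marked loci and the tiles were not, so these ranks describe and do not test. The ratio of covered length, bone marrow over fetal liver, had a median of 0.655 over the 1191 tiles of 180 kb with at least 10% of their length in peaks of either list (interquartile range 0.488 to 0.832). The Tbx2-Tbx4 value of 0.675 lay near the middle, with 54.0% of tiles at or below it. Over the 582 such tiles of 350 kb the median was 0.641 (0.499 to 0.796), and 76.6% lay at or below the Tbx3-Tbx5 value of 0.802. The excess of fetal liver coverage was thus of about the usual size at Tbx2-Tbx4 and smaller than in most such tiles at Tbx3-Tbx5.

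The lists shared a larger part of their coverage at Tbx3-Tbx5 than at Tbx2-Tbx4. The Jaccard index, the bases in both lists over the bases in either, was 59.9% at Tbx2-Tbx4 and 72.0% at Tbx3-Tbx5, against 42.0% over the genome. Wide domains share more bases than short peaks, so the closer comparison is with tiles of at least 30% of their length in peaks. Of the 169 such tiles of 180 kb, with a median index of 53.9%, 53 had an index at or above that of Tbx2-Tbx4. Of the 43 such tiles of 350 kb, with a median of 52.0%, 5 had one at or above that of Tbx3-Tbx5. The edges of the wide domains were compared in the same way over 820 pairs of joined domains of at least 10 kb in both lists, each overlapping a single partner. The left and right shifts together had a median of 4.59 kb (interquartile range 1.80 to 9.87). They came to 1.31 kb for the left domain of Tbx2-Tbx4, 9.43 kb for its right domain and 5.93 kb for the left domain of Tbx3-Tbx5. Its right domains have no single partner and entered no pair.

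Peaks also lay close outside the windows, except before Tbx2-Tbx4 in bone marrow. There the next bone marrow peak, of 555 bp, lay 259.1 kb before the window, and the next fetal liver peak, of 2248 bp, 4.61 kb before it. After that window the next peak lay 1.74 kb away in bone marrow, with 200 bp, and 0.962 kb away in fetal liver, with 981 bp. Around Tbx3-Tbx5 the next peaks lay 10.8 kb before the window in bone marrow, against 11.2 kb in fetal liver, and 7 kb after it in bone marrow, against 8.33 kb in fetal liver, all of 219 to 1277 bp. Inside the edges, the first bone marrow peak of Tbx2-Tbx4 began 39.1 kb into the window and the first fetal liver peak 10.3 kb into it. The last ended 29.3 kb before its end in bone marrow, against 9.82 kb before it in fetal liver. No peak was cut by a window edge.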

How the data were processed

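H3K27me3 was measured by native chromatin immunoprecipitation and sequencing. Per the submitters' processing notes, the tools were MACS2 2.1.0, BWA 0.5.7 and Picard, on mm9; settings and read numbers were not stated there. The fold enrichment is a ratio over input given by the authors' caller, which also gave a −log10 p-value and a −log10 q-value for every peak. The score that the authors deposited, 10 times the −log10 q as a whole number, was not used. Starts, deposited from 0, are printed from 1. No file of the 2 input samples was used.

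Sample titles gave the groups, with 1 list each, so no test was made. The members, windows and comparisons were chosen with earlier results of these data known. By rule the text names domains of at least 5 kb, the widest peaks and gaps, and bins covered in 1 list alone; the short peaks of high fold and the 15 kb limit were picked after their values were seen. Tiles were laid from each chromosome start without overlap and include those under the windows. Bins and tiles spanned chromosomes 1 to 19 and X, with lengths from GenomeInfoDb 1.38.1. Python 3.11.15, numpy 2.4.6, pandas 2.3.3, scipy 1.17.1 and matplotlib 3.10.9 were used. Peak numbers and covered lengths were identical with bedtools 2.31.1, and simulated data with planted overlaps, gaps and bins served to test the code. Other T-box and limb genes and a protein comparison had been planned and are not analysed here.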

Additional observations from a re-analysis of the deposited data

How the results depend on the processing

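No paired analysis was possible because each population has a single list. Of 60 alternative values, 33 stayed within the 95% Wilson interval of the reported share or within 1.5 times of the reported value. Some of these 33 could not change, so the count overstates stability. They include the bone marrow peak numbers where only the fetal liver list was cut. They also include the widest gaps, all over 10 kb, where peaks were joined within 10 kb. With the fetal liver list cut to as many peaks as bone marrow had, the ratio of covered length, bone marrow over fetal liver, was 0.697 at Tbx2-Tbx4. At Tbx3-Tbx5 it was 0.834. This cut kept the fetal liver peaks with the highest −log10 p-values, so it does not equalise read depth. With windows 20 kb wider on each side the ratio was 0.632 at Tbx2-Tbx4 and 0.823 at Tbx3-Tbx5. No peak crossed a window edge, so keeping peaks whole there could change nothing. Where a −log10 q of 2 or more was required, the direction at Tbx3-Tbx5 was the opposite, with a ratio of 14.8. The 2 widest bone marrow peaks there passed this limit, and no fetal liver peak of at least 5 kb did. The lists kept 6 bone marrow and 6 fetal liver peaks, the Jaccard index was 0%, and bins of 1 list alone made up 66.7% for bone marrow, against 16.7% for fetal liver, also the opposite order to that reported. At Tbx2-Tbx4 the same limit left 0 bone marrow peaks and 1 fetal liver peak, with a ratio of 0, a Jaccard index of 0% and 100% of bins in fetal liver alone. A fold of at least 3 left 0 peaks of either list at Tbx2-Tbx4, so no further value could be had. At Tbx3-Tbx5 it left 0 bone marrow and 4 fetal liver peaks, with a ratio of 0, a Jaccard index of 0%, and 0% of bins in bone marrow alone against 100% in fetal liver alone. When a bin of 1 list alone had to hold 1 kb of peak, the share at Tbx2-Tbx4 was 0% in bone marrow, against 6.25% in fetal liver. At Tbx3-Tbx5 it was 8.70% (2 bins) in bone marrow, against 4.35% (1 bin) in fetal liver. The order turned there, on counts too small to rank the lists. With 20 kb bins the bone marrow share at Tbx3-Tbx5 was 0%. Without joining, domains numbered 13 in bone marrow and 15 in fetal liver at Tbx2-Tbx4, and 13 in bone marrow and 25 in fetal liver at Tbx3-Tbx5. Joining within 10 kb turned the order at Tbx2-Tbx4, with 3 in bone marrow, against 2 in fetal liver, and gave 6 in bone marrow and 6 in fetal liver at Tbx3-Tbx5. Read depth, which is unknown here, limits comparisons of covered length.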
